A study of Mus musculus with 6 samples.

Results

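The genes examined here are 9 that are best known from neutrophils and from monocytes recruited out of the blood, namely S100a8, S100a9, Retnlg, Lyz2, Il1b, Csf3r, Itgam, Ly6c2 and Bst1. They were taken by symbol from an RNA-seq table of 34745 genes, in which the 9 symbols fill 10 rows because Itgam stands under 2 identifiers. The genes were picked with their difference between the genotypes already known, so their values are a description and carry no test. Liver tumors of Prmt3f/f and Prmt3LKO mice were compared, 3 of each genotype with 1 library for each tumor. Prmt3f/f animals carry the floxed Prmt3 alleles and are labelled WT. Prmt3LKO animals, labelled Prmt3-KO, carry the floxed alleles together with the Alb-Cre transgene, in which the albumin promoter drives Cre in hepatocytes and, by design, not in neutrophils or monocytes. All mice of both groups were male and had the same treatment, a DEN injection of 25 mg/kg at 2 weeks of age and 10% CCl4 at 0.5 ml/kg 2 times a week from 6 weeks, and the tumors were taken at 26 weeks. DEN is a carcinogen activated in hepatocytes, and CCl4 is a hepatotoxin that causes repeated injury. The labels number the tumors but name no batch, and they do not say that each tumor came from a different mouse, so the spread reported here is that between these samples.

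Neutrophils are short-lived phagocytes that are made in bone marrow under G-CSF, leave the blood at sites of injury by means of beta2 integrins, and carry large stores of granule proteins. Classical monocytes leave the marrow through CCR2, express Ly6C, and can become macrophages in tissue. In injured liver and in liver tumors both cell types enter beside the resident macrophages of the liver, the Kupffer cells. None of the 9 genes is the sole property of one cell type, since Lyz2 and Itgam are also transcribed by macrophages and Ly6c2 is shared by monocytes and some lymphocytes. In bulk RNA a smaller number of cells of one type and a smaller amount of RNA in each cell cannot be told apart. The label of the set was therefore read against stricter markers. Ly6g, the surface protein that defines mouse neutrophils, had 3 counts in Prmt3f/f tumor 71 and 0 counts in the other 5 tumors. Stfa2l1 was at 0 in all 6 tumors and Cxcr1 had at most 2 counts in any tumor. The neutrophil granule genes Mpo and Elane had between 4 and 13 counts in Prmt3f/f tumors and between 0 and 4 counts in Prmt3LKO tumors. Cxcr2, another neutrophil surface gene, had 50, 11 and 16 counts in Prmt3f/f tumors 7, 66 and 71. In Prmt3LKO tumors 92, 93 and 94 it had 12, 26 and 9 counts, and the groups overlapped. Other than Cxcr2, the markers named here were thus at 0 or at few counts. They were picked with their values known, and other neutrophil genes of the lists below were counted more. Ltf had 34, 37 and 42 counts in Prmt3f/f tumors 7, 66 and 71 and 18, 14 and 7 in Prmt3LKO tumors 92, 93 and 94. Fpr2 had 59, 42 and 59 counts against 18, 16 and 27. Both were lower without overlap (6.59% of all tested genes). A level of 3 counts corresponds to between 0.107 and 0.163 CPM (counts scaled to library size). No cell type is assigned to the 9 genes from these data.

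The start regions of 4 of the genes are shown because their products mark the calcium-binding, receptor and adhesion roles described below. The lower mean in Prmt3LKO tumors was shared by all 9 genes and does not set these 4 apart. Each sequence is the 250 bases before the transcription start in RefSeq, on the GRCm38.p6 build and read on the strand of the gene. Capitals mark the C/EBP letters TTGCNNAA or TTNNGCAA, the PU.1 core GAGGAA or TTCCTC, and the TATA letters TATAAA or TTTATA. C/EBP proteins and PU.1 are transcription factors of myeloid cells.
S100a8, chr3:90668821-90669070, plus strand: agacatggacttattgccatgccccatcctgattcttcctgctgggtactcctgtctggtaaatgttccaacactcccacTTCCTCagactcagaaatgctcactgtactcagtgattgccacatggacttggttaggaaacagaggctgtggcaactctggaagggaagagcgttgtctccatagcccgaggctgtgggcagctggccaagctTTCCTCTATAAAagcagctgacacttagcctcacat
S100a9, chr3:90695722-90695971, minus strand: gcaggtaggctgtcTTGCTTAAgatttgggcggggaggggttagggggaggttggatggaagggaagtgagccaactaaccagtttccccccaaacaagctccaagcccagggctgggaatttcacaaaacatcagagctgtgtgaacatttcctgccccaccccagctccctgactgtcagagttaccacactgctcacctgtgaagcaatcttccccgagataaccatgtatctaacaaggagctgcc
Csf3r, chr4:126024409-126024658, plus strand: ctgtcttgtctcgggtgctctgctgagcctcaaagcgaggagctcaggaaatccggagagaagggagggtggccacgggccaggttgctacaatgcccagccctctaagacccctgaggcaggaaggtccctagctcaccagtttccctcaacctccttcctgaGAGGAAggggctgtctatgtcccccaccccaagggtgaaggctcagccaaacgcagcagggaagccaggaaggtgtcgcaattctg
Itgam, chr7:128062390-128062639, plus strand: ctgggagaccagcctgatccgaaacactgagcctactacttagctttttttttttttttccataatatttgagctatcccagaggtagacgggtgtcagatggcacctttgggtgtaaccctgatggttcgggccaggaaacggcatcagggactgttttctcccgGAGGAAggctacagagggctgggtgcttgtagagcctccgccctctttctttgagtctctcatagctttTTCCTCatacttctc
S100a8 has the PU.1 letters at 2 places, of which the one nearer the start runs directly into the TATA letters. Csf3r has 1 match and Itgam 2 matches to the PU.1 letters, and S100a9 has 1 match to the C/EBP letters. In the gene positions given below, S100a8 and Csf3r start at 90668978 and 126024550, before their windows end at 90669070 and 126024658. Part of each window thus lies within the gene as placed there. This part holds the S100a8 match nearer the RefSeq start, its TATA letters and the Csf3r match. RefSeq start regions were matched for 8 of the 9 genes, in 9 windows, as Ly6c2 had 2. A gene was counted when any of its windows held a match, whereas the share of all is per window. For Retnlg and 1 of the Ly6c2 windows the bases after the start were not found in the annotated transcripts. The PU.1 letters were present in 4 of the 8 genes (S100a8, Csf3r, Itgam and Ly6c2), against 23.3% of all 32851 start regions of the same length. C/EBP letters were found in 2 of the 8 (S100a9 and Retnlg), against 9.56% of all, and TATA letters in 2 of the 8 (S100a8 and Il1b), against 12.4% of all. The letters of NF-kB, GGG and TTTCC with any 2 bases between them, and of AP-1, TGANTCA, were searched on both strands. They were in none of the 9 windows and in 1.41% and 6.75% of all start regions. These matches are letters in a window and no evidence of binding.

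Between 18440244 and 27976598 reads were counted per tumor, and CPM below are counts scaled by the TMM library size. Prmt3 was 6.60, 8.48 and 10.2 CPM in Prmt3f/f tumors 7, 66 and 71 and 2.80, 2.03 and 3.82 CPM in Prmt3LKO tumors 92, 93 and 94. This is a log2 fold change of -1.55 ± 0.29 (SE) (quasi-likelihood test of edgeR, adjusted p = 0.592; DESeq2, adjusted p = 0.00357). Of 13892 genes tested by edgeR, 0 were called lower and 0 higher (0%) when both an adjusted p below 0.05 and a difference of 2-fold or more were asked for, while DESeq2 called 43 lower (0.31%) and 9 higher (0.0648%). With the unadjusted p in its place, below referred to as the unadjusted limits, edgeR had 246 lower genes (1.77% of those tested) and 44 higher genes (0.317%). Without the limit on fold these were 607 lower (4.37%) and 305 higher (2.2%). The median log2 fold change of all tested genes was 0.00.

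All 9 genes had a lower mean in Prmt3LKO tumors than in Prmt3f/f tumors. The Prmt3LKO mean lay between 11.3% of the Prmt3f/f mean, for Itgam under the first of its 2 identifiers, and 53.1%, for Il1b. The median log2 fold change of the 9 was -1.64. In 7 of the 9 every Prmt3LKO tumor lay below every Prmt3f/f tumor, which was so for 6.59% of all tested genes, in 0 of the 9 did it lie above, which was so for 5.58%, and the groups overlapped for Lyz2 and Il1b. At the adjusted threshold edgeR called 0 of the 9 (0% of tested genes were called lower). DESeq2 called 3 lower, namely Itgam, Ly6c2 and Bst1, and 0 higher, against 0.31% and 0.0648% of tested genes. At the unadjusted limits 8 of the 9 were lower, all but Il1b (1.77% of tested genes), and 0 higher (0.317%), and without the limit on fold they were again 8 (4.37%) and 0 (2.2%). As this contrast chose the genes, nothing is read from these shares. All 9 passed the filter on low counts, but Retnlg and Bst1 reached its level of 0.472 CPM in 1 Prmt3LKO tumor each and S100a8 in 2, so these 3 passed through the Prmt3f/f tumors.

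**Figure D1:**
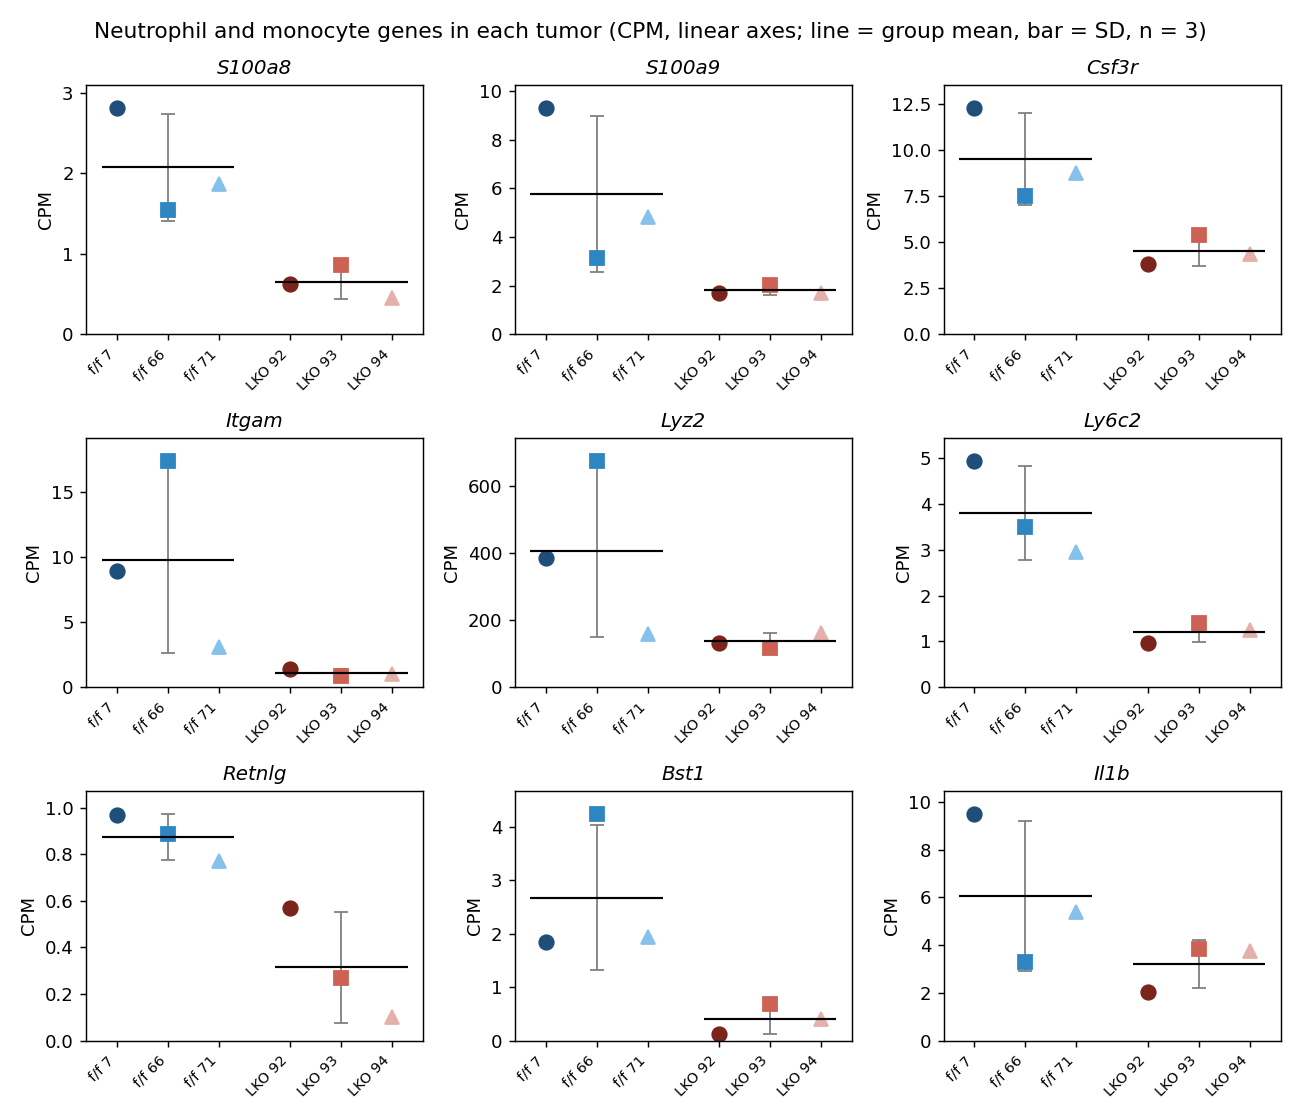
Level of each of the 9 genes in each tumor, in CPM on linear axes that start at 0, with 1 panel per gene, blue points for Prmt3f/f tumors 7, 66 and 71 red points for Prmt3LKO tumors 92, 93 and 94, lines for group means and bars for SD (n = 3). The groups overlap for Lyz2 and Il1b only, and the Prmt3f/f tumors of Itgam spread widely, with a mean of 9.83 and an SD of 7.21.

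S100a8 and S100a9 encode the 2 chains of calprotectin, a calcium- and zinc-binding complex that fills the cytosol of neutrophils and is also made by monocytes. Both genes lie on chromosome 3 of GRCm38, S100a8 from 90668978 to 90670035 on the plus strand and S100a9 from 90692632 to 90695721 on the minus strand. S100a8 (ENSMUSG00000056054) was 2.81, 1.54 and 1.86 CPM in Prmt3f/f tumors 7, 66 and 71 and 0.628, 0.857 and 0.452 CPM in Prmt3LKO tumors 92, 93 and 94. Tumor 7 was the highest and the groups did not overlap, with a gap from 0.857 to 1.54 CPM. Means were 2.07 ± 0.663 CPM in Prmt3f/f tumors and 0.646 ± 0.203 CPM in Prmt3LKO tumors (SD, n = 3 each), a log2 fold change of -1.67 ± 0.41 (SE). Its counts were between 33 and 61 in Prmt3f/f tumors and between 9 and 19 in Prmt3LKO tumors. S100a9 (ENSMUSG00000056071) was 9.32, 3.12 and 4.81 CPM in Prmt3f/f tumors and 1.71, 2.03 and 1.71 CPM in Prmt3LKO tumors, in the same order of tumors. The order of the Prmt3f/f tumors was that of S100a8, and the Prmt3LKO tumors were close together. Means of S100a9 were 5.75 ± 3.20 CPM in Prmt3f/f tumors and 1.82 ± 0.184 CPM in Prmt3LKO tumors (SD, n = 3 each), a log2 fold change of -1.66 ± 0.41 (SE). Without tumor 7 this value was -1.14.

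The ratio of the 2 calprotectin transcripts varied less than their levels. For each count of S100a8 there were 3.31, 2.03 and 2.59 counts of S100a9 in Prmt3f/f tumors and 2.73, 2.37 and 3.78 in Prmt3LKO tumors. The groups overlapped in this ratio, and both its lowest value (tumor 66) and its highest (tumor 94) belong to tumors where S100a8 was lowest in its group. On the FPKM scale, which divides by gene length, S100a9 exceeded S100a8 in every tumor, from 2.74 to 5.11 times.

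Retnlg, Lyz2 and Il1b encode secreted products, namely the resistin-like protein of neutrophils and their precursors, the lysozyme of macrophages, monocytes and neutrophils, and the cytokine interleukin 1 beta. Retnlg (ENSMUSG00000022651, chromosome 16, 48872608 to 48874498, plus strand) had 21, 19 and 22 counts in Prmt3f/f tumors 7, 66 and 71 and 10, 6 and 2 counts in Prmt3LKO tumors 92, 93 and 94. In CPM these were 0.969, 0.886 and 0.773 against 0.571, 0.271 and 0.100. The Prmt3f/f tumors were close together and all lay above the Prmt3LKO tumors, of which tumor 94 was within 3 counts of 0. The log2 fold change was -1.49 ± 0.59 (SE), and it was -1.07 without tumor 94 and -2.19 without tumor 92. Of its near relatives, Retnla and Retn had at most 2 counts in any tumor.

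Lyz2 (ENSMUSG00000069516, chromosome 10, 117277334 to 117282274, minus strand) was by far the most abundant of the 9 genes. Its level was 386, 674 and 160.0 CPM in Prmt3f/f tumors 7, 66 and 71 and 133, 118 and 162 CPM in Prmt3LKO tumors 92, 93 and 94. Tumor 71 was level with the Prmt3LKO tumors and below tumor 94 in CPM, so the groups overlapped. On the FPKM scale, without TMM scaling, tumor 71 was at 128.5 and tumor 94 at 126.7, in the opposite order. Means were 407 ± 258 CPM in Prmt3f/f tumors and 138 ± 22.5 CPM in Prmt3LKO tumors (SD, n = 3 each), a log2 fold change of -1.56 ± 0.46 (SE) that came down to -0.98 without tumor 66. Lyz1, the neighbouring lysozyme gene, shares 1.97% of the 100-base windows of the Lyz2 transcript and was 1.98, 14.0 and 0.984 CPM in Prmt3f/f tumors and 0.057, 1.26 and 0.100 CPM in Prmt3LKO tumors. Lyz1 was again highest in tumor 66, and its log2 fold change of -3.50 (edgeR adjusted p = 0.684) was -1.58 without that tumor.

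Il1b (ENSMUSG00000027398, chromosome 2, 129364570 to 129371139, minus strand) differed least of the 9. It was 9.50, 3.31 and 5.38 CPM in Prmt3f/f tumors 7, 66 and 71 and 2.06, 3.83 and 3.77 CPM in Prmt3LKO tumors 92, 93 and 94. Tumor 66 lay below tumors 93 and 94, and tumor 7 stood above all others. Means were 6.06 ± 3.15 CPM in Prmt3f/f tumors and 3.22 ± 1.01 CPM in Prmt3LKO tumors (SD, n = 3 each). This is a log2 fold change of -0.91 ± 0.42 (SE), which was -0.44 without tumor 7. The locus is overlapped by the antisense gene Il1bos.

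Csf3r, Ly6c2 and Bst1 encode surface proteins. Csf3r, the receptor for G-CSF through which neutrophils are made and kept alive, lies on chromosome 4 from 126024550 to 126044440 on the plus strand (ENSMUSG00000028859). It was 12.3, 7.51 and 8.78 CPM in Prmt3f/f tumors 7, 66 and 71 and 3.83, 5.41 and 4.37 CPM in Prmt3LKO tumors 92, 93 and 94. The groups did not overlap, and the order of the tumors was that of S100a9 in both groups except that tumor 94 stood above tumor 92. Means were 9.53 ± 2.49 CPM in Prmt3f/f tumors and 4.54 ± 0.804 CPM in Prmt3LKO tumors (SD, n = 3 each), a log2 fold change of -1.07 ± 0.25 (SE).

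Ly6c2, one of the genes of the Ly6C antigen that marks classical monocytes, lies on chromosome 15 from 75108158 to 75111970 on the minus strand (ENSMUSG00000022584). It was 4.94, 3.50 and 2.95 CPM in Prmt3f/f tumors and 0.971, 1.40 and 1.26 CPM in Prmt3LKO tumors. The Prmt3LKO tumors were close together and below every Prmt3f/f tumor. Means were 3.79 ± 1.03 CPM in Prmt3f/f tumors and 1.21 ± 0.217 CPM in Prmt3LKO tumors (SD, n = 3 each), a log2 fold change of -1.64 ± 0.32 (SE). Its neighbour Ly6c1, which endothelial cells also transcribe, shares 5.81% of the 100-base windows of Ly6c2. Ly6c1 was 2.72, 2.84 and 2.18 CPM in Prmt3f/f tumors and 1.49, 2.34 and 2.61 CPM in Prmt3LKO tumors, with a log2 fold change of -0.26 (edgeR adjusted p = 0.955) and overlapping groups. For each count of Ly6c1 there were 1.81, 1.23 and 1.36 counts of Ly6c2 in Prmt3f/f tumors and 0.654, 0.596 and 0.481 in Prmt3LKO tumors. Ly6c2 was thus the more counted of the pair in every Prmt3f/f tumor and the less counted in every Prmt3LKO tumor. Ly6a, another gene of the family, had overlapping groups and a log2 fold change of -0.12 (edgeR adjusted p = 0.988), whose sign turned with single tumors left out.

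Bst1 (CD157), an ectoenzyme of myeloid and stromal cells that cleaves NAD, lies on chromosome 5 from 43818885 to 43843986 on the plus strand (ENSMUSG00000029082) and overlaps Fbxl5 on the other strand. It had 40, 91 and 55 counts in Prmt3f/f tumors 7, 66 and 71 and 2, 15 and 8 counts in Prmt3LKO tumors 92, 93 and 94. Tumor 66 was the highest, and tumor 92 was within 3 counts of 0. In CPM the means were 2.67 ± 1.36 in Prmt3f/f tumors and 0.397 ± 0.281 in Prmt3LKO tumors (SD, n = 3 each), a log2 fold change of -2.70 ± 0.62 (SE), which was -3.31 without tumor 93 and -2.20 without tumor 66. Cd38, the other NAD-cleaving ectoenzyme of this family, was 29.8, 29.6 and 28.9 CPM in Prmt3f/f tumors and 22.3, 19.9 and 22.5 CPM in Prmt3LKO tumors. Its groups did not overlap either, with a log2 fold change of -0.45 (edgeR adjusted p = 0.606).

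Itgam encodes CD11b, the alpha chain of the beta2 integrin Mac-1, by which neutrophils and monocytes adhere to endothelium and take up complement-coated particles. Under its own identifier (ENSMUSG00000030786, chromosome 7, 128062640 to 128118491, plus strand) it was 8.95, 17.4 and 3.09 CPM in Prmt3f/f tumors 7, 66 and 71 and 1.43, 0.857 and 1.06 CPM in Prmt3LKO tumors 92, 93 and 94. The Prmt3f/f tumors spread from 3.09 to 17.4 CPM, and all lay above the Prmt3LKO tumors. Means were 9.83 ± 7.21 CPM in Prmt3f/f tumors and 1.11 ± 0.290 CPM in Prmt3LKO tumors (SD, n = 3 each). This is a log2 fold change of -3.14 ± 0.62 (SE), the largest of the 9 when Itgam is taken under this identifier alone, and it was -2.43 without tumor 66.

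The table gives the symbol Itgam to a second identifier as well (ENSMUSG00000108596), which the GENCODE M21 annotation of GRCm38 names Gm49368 and places on chromosome 7 from 128062683 to 128128160 on the same strand. Of the 100-base windows of the Itgam transcripts, 64.3% also occur in Gm49368, so reads of one could have been counted under the other. The second identifier was 2.31, 15.9 and 1.76 CPM in Prmt3f/f tumors and 0.971, 1.53 and 2.51 CPM in Prmt3LKO tumors. It shared the high value in tumor 66 but its groups overlapped, with a log2 fold change of -1.98 ± 0.86 (SE, edgeR adjusted p = 0.761). The first identifier held 79.5%, 52.3% and 63.8% of the summed counts in Prmt3f/f tumors and 59.5%, 35.9% and 29.6% in Prmt3LKO tumors. Summed over both, Itgam was 11.3, 33.3 and 4.85 CPM in Prmt3f/f tumors and 2.40, 2.39 and 3.57 CPM in Prmt3LKO tumors. The groups still did not overlap, by a smaller margin, and the log2 fold change was -2.56 ± 0.66 (SE). This sum was added after the values were seen.

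**Figure D2:**
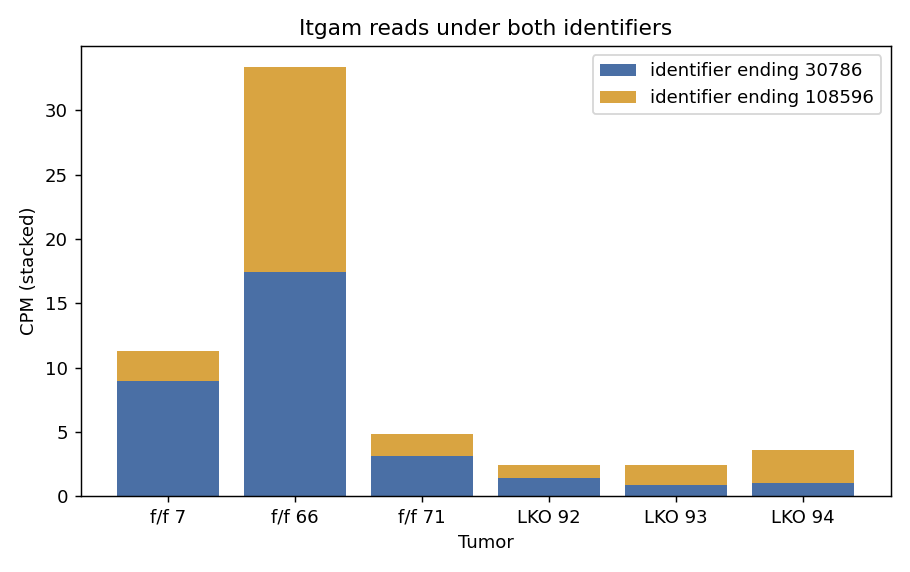
Stacked bars of the CPM of both identifiers that carry the symbol Itgam, for each of the 6 tumors, with the vertical axis starting at 0. The summed level is between 4.85 and 33.3 CPM in Prmt3f/f tumors and between 2.39 and 3.57 CPM in Prmt3LKO tumors, and the share of the first identifier (blue) is smallest in tumors 93 and 94.

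Itgb2, the beta chain with which Itgam pairs, was 29.3, 56.9 and 39.2 CPM in Prmt3f/f tumors and 18.2, 22.8 and 24.0 CPM in Prmt3LKO tumors. It was named for this pairing with its values known, and it too was highest in tumor 66 and had a log2 fold change of -0.95.

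The 9 genes did not vary as 1 block among the Prmt3f/f tumors. Tumor 7 was the highest of all tumors for 6 of them, namely S100a8, S100a9, Csf3r, Ly6c2, Retnlg and Il1b. Tumor 66 was the highest for the other 3, Itgam, Lyz2 and Bst1. Relative to the Prmt3f/f mean, tumor 66 was at 177.5% for Itgam, 165.8% for Lyz2 and 158.7% for Bst1, and at 74.3% for S100a8, 54.3% for S100a9 and 54.6% for Il1b. Tumor 7 was at 135.8% for S100a8, 162% for S100a9 and 156.7% for Il1b, and at 91.1% for Itgam, 94.9% for Lyz2 and 69.0% for Bst1. Calprotectin, the G-CSF receptor and interleukin 1 beta were therefore high in one tumor, and the integrin, lysozyme and CD157 in another. With 1 tumor on each side no test of this split is possible. The lowest tumor also differed, being tumor 92 for 4 genes, tumor 93 for 2 and tumor 94 for 3. No gene was highest in a Prmt3LKO tumor or lowest in a Prmt3f/f tumor.

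**Figure D3:**
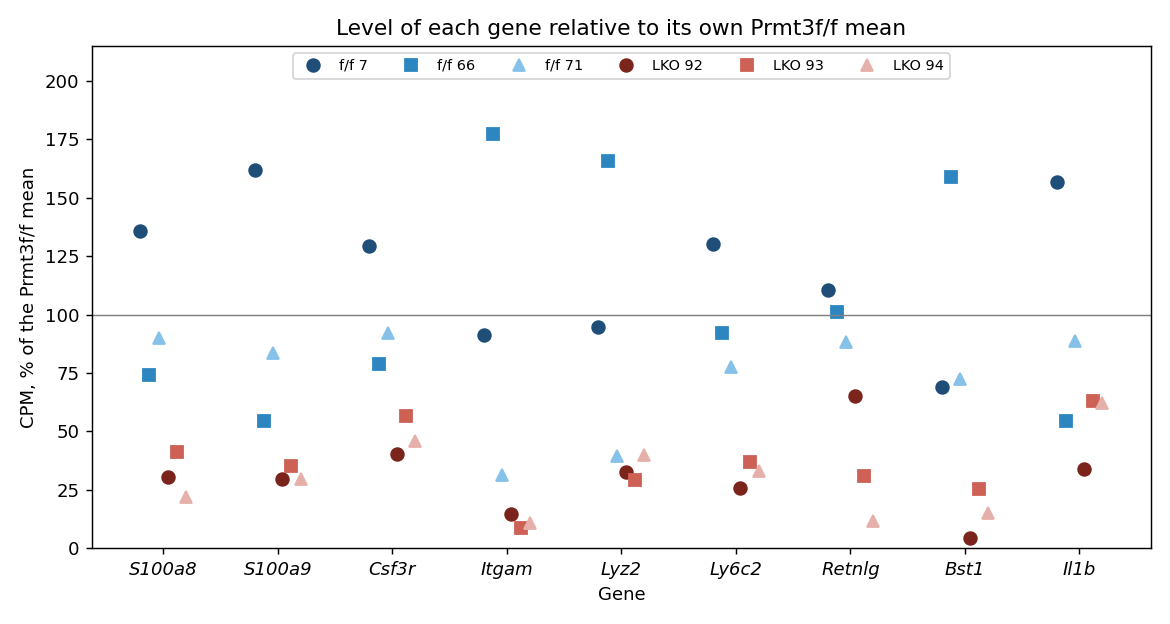
Level of each gene in each tumor as a percentage of its own Prmt3f/f mean (grey line at 100), on a linear axis from 0, with blue points for Prmt3f/f and red points for Prmt3LKO tumors. Tumor 66 (blue squares) stands highest for Itgam, Lyz2 and Bst1, and tumor 7 (dark blue circles) for the other 6 genes.

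Between genes, levels were set side by side on the FPKM scale, which divides by gene length. Itgam stands here under its first identifier only, and its second had means of 1.24 FPKM in Prmt3f/f and 0.32 FPKM in Prmt3LKO tumors. In Prmt3f/f tumors Lyz2 led with a mean of 321 ± 196 FPKM (SD, n = 3). Far below it stood S100a9 with 8.04 ± 4.64, Il1b with 2.62 ± 1.42 and S100a8 with 2.13 ± 0.732 FPKM (SD, n = 3). Csf3r (1.75 ± 0.498), Retnlg (1.45 ± 0.176), Itgam (1.36 ± 0.966), Ly6c2 (0.879 ± 0.253) and Bst1 (0.474 ± 0.227 FPKM, SD, n = 3) came last. The highest Il1b value, 4.16 FPKM, was just under the lowest S100a9 value, 4.19 FPKM, and below this step the ranges of all neighbours overlapped. In Prmt3LKO tumors Lyz2 had 108 ± 16.3 FPKM, S100a9 had 2.48 ± 0.364, Il1b had 1.37 ± 0.471 and Csf3r had 0.820 ± 0.184 FPKM (SD, n = 3). S100a8 (0.656 ± 0.231), Retnlg (0.506 ± 0.366), Ly6c2 (0.277 ± 0.0616), Itgam (0.152 ± 0.0328) and Bst1 (0.0716 ± 0.0529 FPKM, SD, n = 3) followed. Here too the ranges of neighbours overlapped below S100a9, except between Ly6c2 and Itgam. Csf3r thus stood above S100a8 in Prmt3LKO tumors and below it in Prmt3f/f tumors, with means closer than their spread in both.

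Markers of leukocytes as a whole were also lower in Prmt3LKO tumors. The summed level of 6 pan-leukocyte genes (Ptprc, Coro1a, Laptm5, Cd53, Cd52 and Lcp1) was 240.2, 224 and 229.1 CPM in Prmt3f/f tumors and 139.2, 185.5 and 167.5 CPM in Prmt3LKO tumors, and 4 of the 6 lay lower without overlap (6.59% of all tested genes). Ptprc, which encodes CD45 on all leukocytes, was 41.0, 39.6 and 39.6 CPM against 19.1, 23.7 and 25.7 CPM, with a log2 fold change of -0.81 (edgeR adjusted p = 0.592). The 9 genes were therefore also expressed as shares of these levels in each tumor, as a description. Per pan-leukocyte sum the Prmt3LKO mean was below the Prmt3f/f mean for all 9, and the groups did not overlap for 6 of them (S100a8, S100a9, Csf3r, Itgam, Ly6c2 and Bst1). The median log2 ratio of the means was -1.14, against -1.65 for CPM without this division. Itgam under its first identifier (-2.60) and Bst1 (-2.35) remained the lowest, and Csf3r (-0.57) and Il1b (-0.43) the nearest to 0. Divided by Ptprc alone, the median was -0.82 and the groups did not overlap for 4 of the 9. Divided by the summed level of 10 genes of macrophages and phagocytes, it was -1.12 and the groups did not overlap for 3 of the 9. The share of all tested genes without overlap after these divisions was not computed, so nothing is read from these counts. S100a8, Retnlg and Bst1 passed the filter through the Prmt3f/f tumors, which also limits the counts and medians given here. The division took up part of the difference in CPM, and how far the remainder belongs to one cell type was not tested.

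**Figure D4:**
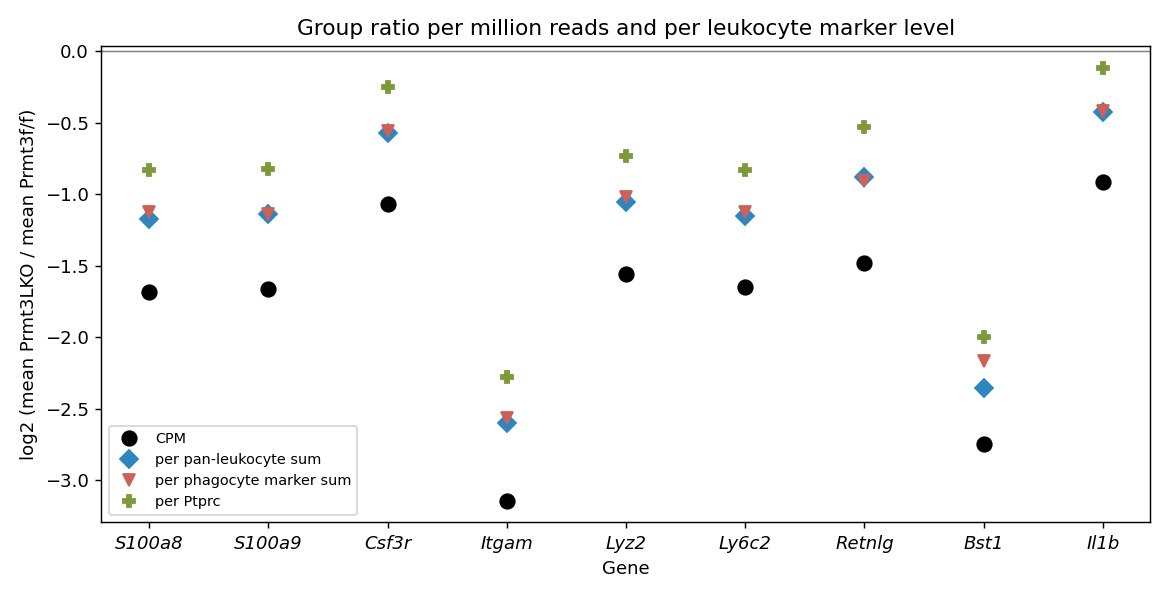
Log2 ratio of the Prmt3LKO mean to the Prmt3f/f mean for each gene, in CPM (black circles) and after division in each tumor by the pan-leukocyte sum (blue), the phagocyte marker sum (red) or Ptprc (green), with the line at 0 marking equal means. All points lie below 0, and those for Itgam and Bst1 lie lowest under each of the 4 scales.

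Markers of other cells that the tumors can hold moved unevenly. The summed level of 8 Kupffer cell genes was 419, 330.7 and 338.1 CPM in Prmt3f/f tumors and 341.2, 236.1 and 346.7 CPM in Prmt3LKO tumors, with overlap. Clec4f, a lectin receptor of Kupffer cells, had a log2 fold change of -0.05 (edgeR adjusted p = 0.994). Its sign turned when tumor 7 (0.23) or tumor 93 (0.16) was left out. Adgre1, the macrophage antigen F4/80, had a log2 fold change of -0.48 (edgeR adjusted p = 0.740). All 8 Kupffer cell genes had a log2 fold change below 0, and 2 were lower at the unadjusted limits (1.77% of all tested genes). In 3 the groups did not overlap (6.59%), and DESeq2 called 1 lower (0.31%). The 2 at the unadjusted limits were Marco and Timd4, named with their values known. Marco, a scavenger receptor, was 12.0, 37.2 and 18.3 CPM in Prmt3f/f tumors and 4.11, 4.06 and 5.73 CPM in Prmt3LKO tumors, with a log2 fold change of -2.28 (edgeR adjusted p = 0.592) and its highest value in tumor 66, as for Itgam. Timd4, a phosphatidylserine receptor, had a log2 fold change of -1.29 (edgeR adjusted p = 0.592) and groups that did not overlap. The sum of 6 T cell genes was between 23.0 and 28.6 CPM in Prmt3f/f tumors and between 5.03 and 16 CPM in Prmt3LKO tumors, and that of 7 dendritic cell genes between 16.02 and 23.3 CPM and between 9.20 and 14.8 CPM. Sums of natural killer cell genes (6.39 to 8.03 CPM against 2.91 to 5.37 CPM) and of platelet genes (4.01 to 5.54 CPM against 2.97 to 3.88 CPM) did not overlap either, and sums of B cell, endothelial and hepatocyte genes did. Erythroid genes were among those that were lower, with Hbb-bs at 40.2, 47.4 and 46.0 CPM in Prmt3f/f tumors and 16.9, 27.3 and 11.3 CPM in Prmt3LKO tumors. Their sum was between 82.4 and 140 CPM in Prmt3f/f tumors and between 67.0 and 75.2 CPM in Prmt3LKO tumors. Of the marker lists, T cell and erythroid genes had the lowest median log2 fold changes, -1.08 and -1.27. At the unadjusted limits 3 of 6 tested T cell genes and 4 of 5 tested erythroid genes were lower (1.77% of all tested genes). Higher genes numbered 0 (0.317%), and in 4 of each list the groups did not overlap, all lower (6.59%). Cd3d and Cd3e reached the filter level in all Prmt3f/f tumors only. The same held for Cd163 (Kupffer cell), Xcr1 (dendritic cell), Ms4a1 and Pax5 (B cell) and Ppbp (platelet). The direction of these genes, and the counts and medians that hold them, are partly fixed by the filter. Blood carries neutrophils, monocytes, platelets and erythroid RNA alike, and the part of blood in the tissue in the values of the 9 genes was not tested. Mast cell and basophil genes summed to at most 10 counts in any tumor, with Mcpt4 and Fcer1a at 0 in all 6.

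Other neutrophil genes had lower means as well, but the most abundant of them overlapped between groups. Of 22 listed surface and maturation genes 11 passed the filter, and all 11 had a log2 fold change below 0, with a median of -0.84. None of the 11 was called by edgeR (0 in either direction), at the unadjusted limits 4 were lower and 0 higher (1.77% and 0.317% of all tested genes), and in 6 the groups did not overlap, all lower (6.59% of all tested genes). Of the 11, 4 (Cxcr2, Clec4d, Clec4e and Acod1) reached the filter level in all Prmt3f/f tumors but not in all Prmt3LKO tumors, so their direction and the count and median that hold them are partly fixed by the filter. Clec4e (Mincle) and Clec4d, neighbouring C-type lectin receptors that signal through the Fc receptor gamma chain, differed most. Clec4e was 0.876, 8.30 and 0.632 CPM in Prmt3f/f tumors 7, 66 and 71 and 0.057, 0.225 and 0.553 CPM in Prmt3LKO tumors. The tumor with the high value was again tumor 66, as for Itgam and Lyz2. Its log2 fold change of -3.50 (edgeR adjusted p = 0.652) was -1.40 without that tumor, and that of Clec4d, -2.53 (edgeR adjusted p = 0.684), was -1.27. The 2 most abundant genes of the list had overlapping groups. G0s2, an inhibitor of lipolysis that hepatocytes also transcribe, was 16.2, 95.9 and 122 CPM against 57.2, 48.5 and 69.4 CPM, with a log2 fold change of -0.42 (edgeR adjusted p = 0.963) that was 0.058 without tumor 71. Fpr1, the formyl peptide receptor, had one of -0.17 (edgeR adjusted p = 0.960).

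Of 12 granule genes 6 passed the filter, all 6 with a log2 fold change below 0 and with a median of -0.84. Of these edgeR called 0, and at the unadjusted limits 2 were lower and 0 higher (1.77% and 0.317% of all tested genes). Ltf, Ngp and Chil3, 3 of the 6, reached the filter level in all Prmt3f/f tumors but not in all Prmt3LKO tumors, with the same limit on the count and the median. Chil3, a chitinase-like protein of neutrophils and macrophages, was 3.09, 2.42 and 1.65 CPM in Prmt3f/f tumors and 1.09, 0.451 and 0.452 CPM in Prmt3LKO tumors, without overlap (edgeR adjusted p = 0.592). Ngp was 1.02, 2.47 and 1.02 CPM in Prmt3f/f tumors and 1.2, 0 and 0.050 CPM in Prmt3LKO tumors, so that tumor 92 alone held nearly all reads of its group. Its log2 fold change of -1.90 (edgeR adjusted p = 0.853) was -5.67 without tumor 92. Lcn2, a siderophore-binding protein that injured hepatocytes also make, was 963, 253 and 344 CPM against 368, 545 and 243 CPM (edgeR adjusted p = 0.955), and Prtn3, a serine protease, had a log2 fold change of -0.29 (edgeR adjusted p = 0.968). Their groups overlapped, the sign of both turned without tumor 7, and tumor 7 held the highest value of both, as it did for S100a8 and S100a9.

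All 19 genes listed for recruited monocytes passed the filter. Of these 18 had a log2 fold change below 0 and 1 above, with a median of -0.65, and the groups did not overlap for 6, all of them lower (6.59% of all tested genes). None was called by edgeR, and at the unadjusted limits 3 were lower and 0 higher (1.77% and 0.317% of all tested genes). Ccr2, the receptor that brings monocytes out of the marrow, was 14.4, 8.02 and 6.11 CPM in Prmt3f/f tumors and 3.48, 3.07 and 5.32 CPM in Prmt3LKO tumors. Tumor 7 was highest and the groups did not overlap, with a log2 fold change of -1.26 (edgeR adjusted p = 0.606). Emilin2, a matrix glycoprotein, was 5.90, 11.8 and 5.17 CPM against 2.86, 2.44 and 2.71 CPM, with a log2 fold change of -1.51 (edgeR adjusted p = 0.592), and was called by DESeq2. The 2 most abundant genes of the list, Msrb1, a methionine sulfoxide reductase (0.03, edgeR adjusted p = 0.996), and Smpdl3a, a phosphodiesterase (-0.28, edgeR adjusted p = 0.892), overlapped between groups, and the sign of Msrb1 turned with single tumors left out and with library size only.

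Among the attractants and growth factors of these cells, 9 of 14 listed genes passed the filter, and all 9 had a log2 fold change below 0, with a median of -0.68. The test of edgeR called 0, and at the unadjusted limits 2 were lower and 0 higher (1.77% and 0.317% of all tested genes). Cxcl2 and Ccl4, 2 of the 9, reached the filter level in all Prmt3f/f tumors only, with the limit given above. Ccl2, the ligand of Ccr2, was 10.7, 5.50 and 5.62 CPM in Prmt3f/f tumors and 2.74, 1.80 and 2.21 CPM in Prmt3LKO tumors. It was highest in tumor 7, like Ccr2, and its log2 fold change was -1.69 (edgeR adjusted p = 0.592; called by DESeq2). Cxcl2, a neutrophil attractant, had between 14 and 32 counts in Prmt3f/f tumors and 7 or 8 counts in Prmt3LKO tumors (log2 fold change -1.27, edgeR adjusted p = 0.713). Cxcl1, the more abundant neutrophil attractant, was 70.8, 42.7 and 47.8 CPM against 44.8, 42.0 and 35.2 CPM, with overlap (log2 fold change -0.40, edgeR adjusted p = 0.812). Csf3, which encodes the ligand of Csf3r, had 1 count in tumor 92 and 0 counts elsewhere, and Csf2 was at 0 in all tumors.

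Growth factor receptors and transcription factors of the myeloid lineage were divided in direction. Of 15 listed genes 14 passed the filter, 10 with a log2 fold change below 0 and 4 above, with a median of -0.30. Again edgeR called 0, and at the unadjusted limits 0 were lower and 1 was higher (1.77% and 0.317% of all tested genes). That gene was Cebpe, a factor of late granulocyte maturation, which went against the 9. It was 1.80, 0.932 and 1.97 CPM in Prmt3f/f tumors and 3.998, 3.47 and 8.99 CPM in Prmt3LKO tumors. The groups did not overlap, with a log2 fold change of 1.80 (edgeR adjusted p = 0.592), and DESeq2 called it higher. Cebpe was the only gene of the list that lay higher without overlap (5.58% of all tested genes), while 4 lay lower without overlap (6.59%). These 4, named with their values known, were Csf1r (-0.47), Spi1 (-0.45), Irf8 (-0.51) and Jak2 (-0.30). Klf4 (0.02) and Cebpd (0.05), also above 0, were close to it and had overlapping groups. Cebpb and Cebpa, which hepatocytes also transcribe, had log2 fold changes of -0.13 (edgeR adjusted p = 0.983) and 0.42 (edgeR adjusted p = 0.775), and that of Cebpb turned its sign without tumor 71. Csf2rb2, a receptor chain of the interleukin 3 family, had one of -0.68 (edgeR adjusted p = 0.768).

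In the list of beta2 integrins, selectins and their ligands 9 of 11 genes passed the filter, 8 with a log2 fold change below 0 and 1 above, with a median of -0.59. The number called by edgeR was 0, at the unadjusted limits 2 were lower and 0 higher (1.77% and 0.317% of all tested genes), and in 6 the groups did not overlap, all lower (6.59%). Itgax, which encodes CD11c, the alpha chain of another beta2 integrin, was 13.4, 16.2 and 12.96 CPM in Prmt3f/f tumors and 4.23, 8.75 and 7.99 CPM in Prmt3LKO tumors (log2 fold change -1.02, edgeR adjusted p = 0.606). Selplg, the selectin ligand of leukocytes, was 17.6, 17.2 and 14.6 CPM against 6.40, 8.84 and 9.14 CPM (log2 fold change -1.01, edgeR adjusted p = 0.592; called by DESeq2). Both had non-overlapping groups, with Itgax highest in tumor 66 and Selplg in tumor 7. Icam1 and Vcam1, ligands on endothelium and other cells, had log2 fold changes of -0.55 (edgeR adjusted p = 0.684) and -0.54 (edgeR adjusted p = 0.743).

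The pathways around Il1b and around calprotectin were nearest to the median of all genes. All 12 listed genes of interleukin 1 and the inflammasome passed the filter, with a median log2 fold change of -0.16, 10 below 0 and 2 above, and the groups overlapped for each of them. Both by edgeR's adjusted p and at the unadjusted limits 0 were called. Nlrp3 (-1.01, edgeR adjusted p = 0.775) and Pycard (-0.71, edgeR adjusted p = 0.800), the sensor and the adaptor of the inflammasome, were furthest from 0, with Nlrp3 at -1.75 without tumor 94, and Gsdmd, the pore former (0.28, edgeR adjusted p = 0.892), and Il1rap, a chain of the interleukin 1 receptor (-0.07, edgeR adjusted p = 0.988), were the most abundant. Of 11 listed genes of the S100 family and of calprotectin receptors 9 passed the filter, with a median of -0.13, 6 below 0 and 3 above. By edgeR 0 were called and 0 at the unadjusted limits, and in 1 the groups did not overlap (6.59% of all tested genes did so in that direction). S100a10 (0.02, edgeR adjusted p = 0.998) and S100a11 (-0.40, edgeR adjusted p = 0.935), which many cell types transcribe, were the most abundant, and S100a4 (-0.81, edgeR adjusted p = 0.876) and S100a6 (-0.45, edgeR adjusted p = 0.945) were furthest from 0. The signs of Il1rap, S100a10 and S100a6 turned with single tumors left out.

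**Figure D5:**
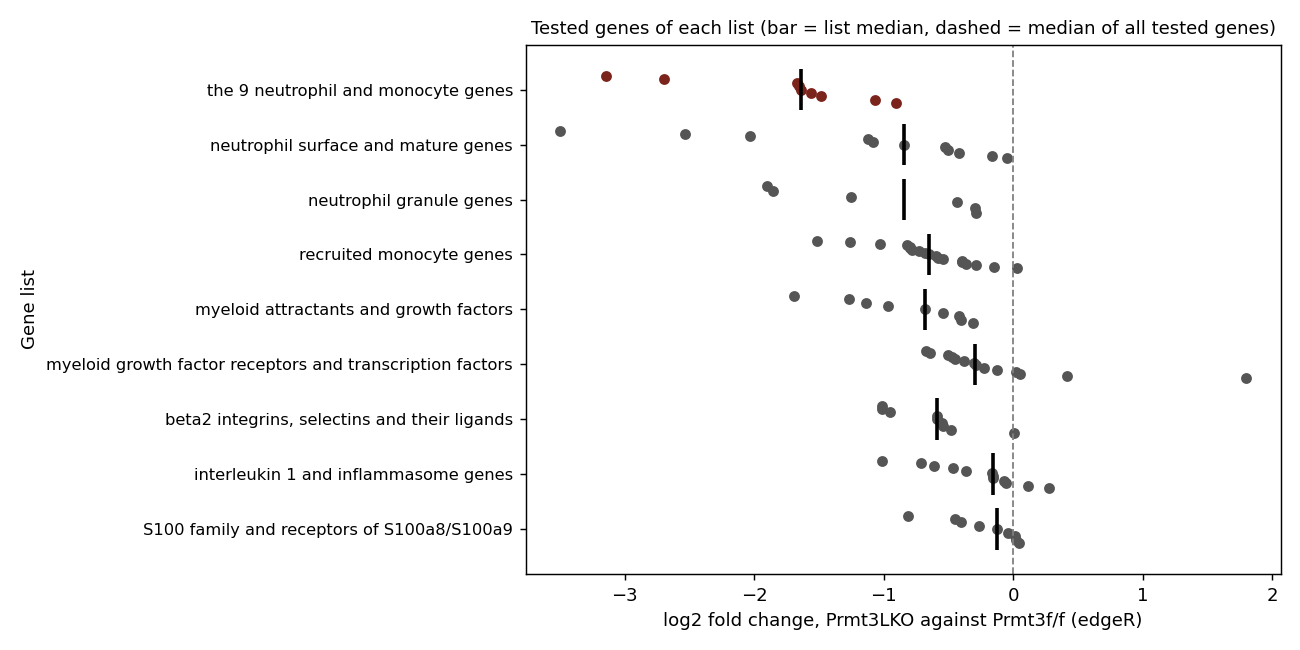
Log2 fold change of Prmt3LKO against Prmt3f/f tumors (horizontal axis, edgeR) for the 9 genes (red) and for each tested gene of the 8 lists (grey), with 1 row per list, black bars for list medians and a dashed line for the median of all tested genes. The median is -1.64 for the 9 genes, which were chosen on this contrast, and between -0.84 and -0.13 for these 8 lists. Marker lists are not shown, of which T cell and erythroid genes had medians of -1.08 and -1.27. Cebpe stands alone on the right at 1.80.

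Genes whose log2 CPM ran most closely with the mean of the 9 over the 6 tumors were sought among all tested genes. The highest Pearson correlations were those of Zfp157 (0.997), Tnfrsf13b (0.996), Hcls1 (0.995), Armc10 (0.988) and Chd6 (0.987). Hcls1 encodes a cytoskeletal adaptor of leukocytes, and Tnfrsf13b (TACI) a receptor of B cells and macrophages. Tnfrsf13b was 2.86, 1.82 and 1.41 CPM in Prmt3f/f tumors and 0.343, 0.631 and 0.402 CPM in Prmt3LKO tumors, with tumor 7 highest and no overlap. Zfp157 was 5.90, 4.801 and 4.71 CPM against 2.86, 3.20 and 2.91 CPM. These correlations rest on 6 libraries that fall into 2 genotypes, so any gene that parts the genotypes scores high. For single genes, chosen after their values were seen, the closest to Itgam were P2rx7 (0.991), an ATP receptor of macrophages, and Pik3cg (0.991), a leukocyte kinase. The gene closest to S100a9, beside the predicted gene Gm14305 (0.996), was Nlrc3 (0.994). P2rx7 was highest in tumor 66 with 19.9 CPM and Nlrc3 in tumor 7 with 1.48 CPM, which their selection by correlation largely fixes.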

How the data were processed

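RNA-seq counts of 3 Prmt3f/f and 3 Prmt3LKO liver tumors were used. Per the submitters' processing notes the tools were bcl2fastq 2.19, HISAT2 2.0.4 and StringTie 1.3.0 on GRCm38. The counting tool, annotation release and use of strand are not given in the sources used here, so overlapping and antisense genes may share reads. The authors deposited for each gene a read count, not normalized, and an FPKM value, which divides the count by gene length and total count. This held on the 8975 genes that reached 100 counts in all 6 tumors.

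Counts were filtered with filterByExpr (minimum count 10, minimum total 15), scaled by TMM and tested two-sided in edgeR 4.0.16 (quasi-likelihood test, R 4.3.3), with Benjamini-Hochberg adjustment over 13892 genes. The SE of a log2 fold change is not an output of this test. It was derived as the absolute log2 fold change divided by the square root of the F statistic. The 9 genes and all lists were chosen with earlier results of these data known. For a symbol with several identifiers the one with the most counts was used, and Acod1 was matched to its synonym Irg1. Named genes were the 9, their near copies, in each list the 2 of highest mean FPKM and the 2 of largest absolute log2 fold change, the 5 closest in correlation, Ptprc, Clec4f, Adgre1 and Prmt3. Genes outside this rule, such as those at or near 0, Cxcr2, Hbb-bs, Marco, Timd4 and Itgb2, were added with their values known. Alternatives were DESeq2 1.42.0, limma-voom (limma 3.58.1), library size without TMM, other filters, log2(FPKM + 1), each tumor left out and, added later, the summed Itgam identifiers. A level of 3 counts is the limit that a count of 0 allows, for counting error only.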

Additional observations from a re-analysis of the deposited data

How the results depend on the processing

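No paired analysis was possible because the groups share no replicate number. Each of the 9 genes stayed below 0 under every alternative in which it was kept, and their median was between -1.77 and -1.42 with each tumor left out. The filter of a mean of at least 1 CPM removed Retnlg, whose mean was 0.595 CPM, so it has no value there. DESeq2 called 43 genes lower and 9 higher, and edgeR without a filter called 2 lower, against 0 and 0. limma-voom, library size only, a mean of at least 1 CPM and every omission of 1 tumor gave 0. Without a filter, list medians moved to -1.14 for neutrophil surface genes, -1.79 for granule genes and -0.97 for attractants. With the stricter filter of a mean of at least 1 CPM they were -0.84, -0.44 and -0.55. With each tumor left out they were between -1.17 and -0.89, -1.67 and -0.55, and -0.94 and -0.49 for these 3 lists, between -0.76 and -0.50 for beta2 integrins and selectins, and between -0.36 and -0.078 for interleukin 1 genes. The median per pan-leukocyte sum was between -1.24 and -0.93. On log2(FPKM + 1) the low genes shrank by construction, to -0.90 for S100a8, -0.58 for Csf3r, -0.95 for Itgam, -0.55 for Ly6c2, -0.73 for Retnlg and -0.45 for Bst1.

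The direction turned with a tumor left out, over the range given, for G0s2 (-0.91 to 0.058), Lcn2 (-0.77 to 0.36), Prtn3 (-0.78 to 0.17), Msrb1 (-0.11 to 0.26), Cebpb (-0.37 to 0.18), Il1rap (-0.27 to 0.23), S100a10 (-0.25 to 0.71), S100a6 (-0.81 to 0.002), Ly6a (-0.42 to 0.31) and Clec4f (-0.21 to 0.23). It also turned for G0s2 with voom (0.026), and with library size only for Msrb1 (-0.004) and S100a10 (-0.005). Beyond fewer tumors in each such fit, the cause was not tested. Genes under about 1 CPM rest on few counts, and 3 tumors in each group limit the rest.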
